A study of Mus musculus with 115 samples.

Results

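The Cyp4a fatty acid hydroxylases were followed through the 4 probe-table symbols Cyp4a10, Cyp4a12, Cyp4a14 and MGC25972 in mouse liver and inguinal fat. They had been chosen by their measured difference between testosterone and blank livers, so that difference is described below without a test. Of the 25697 probes of the Illumina bead arrays, 3 carried a member symbol: 1 for Cyp4a12, 1 for Cyp4a14 and 1 for MGC25972. Cyp4a10 was not analysed here. All 3 probes passed the filter on dim probes in liver, where 11317 probes were tested, and 1 of them, Cyp4a14, passed it in fat, where 14636 were tested.

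The mice were of the FCG (core genotypes) model on a C57BL/6J background, in which Sry, the testis-determining gene, is deleted from the Y chromosome and supplied to some animals as an autosomal transgene. XX and XY- mice lack Sry and are born with ovaries, whereas XXSry and XY-Sry mice carry the transgene and are born with testes. Every animal, blank controls included, was gonadectomised at 75 days of age and received a Silastic capsule that was empty of hormone (blank, B), or held 5 mM testosterone (T) or 50 µg estradiol (E), for 3 weeks. Testes and the Sry transgene itself cannot be told apart in this design, and no group kept its gonads. The 4 genotypes and 3 capsules gave 12 groups, with 5 arrays each in liver (60 arrays) and 3 to 5 in fat (55 arrays). The labels do not say whether each array came from a separate animal, so p-values measure the spread between arrays.

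Cyp4a enzymes are cytochrome P450 monooxygenases of the endoplasmic reticulum. They hydroxylate the terminal, omega carbon of fatty acids, the first step on the way to dicarboxylic acids, which are then shortened in peroxisomes, and they also act on arachidonic acid. In mice Cyp4a10 and Cyp4a14 are known as targets of the fatty acid receptor PPAR-alpha, whereas Cyp4a12 is known for a higher level in males, in kidney and liver, and for its dependence on androgen. In the RefSeq gene table (GRCm38.p6, used for names and gene order only) the family lies on chromosome 4 in the order Cyp4a29, Cyp4a12a, Cyp4a12b, Cyp4a30b, Cyp4a14, Cyp4a10, Cyp4a31 and Cyp4a32, with pseudogenes between them. That table lists Cyp4a12 as a synonym of both Cyp4a12a and Cyp4a12b, and it held no match for MGC25972, so both keep the names of the array. Whether a probe of such close relatives also takes up RNA of its neighbours was not tested.

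The median intensity of a liver array was between 124 and 159 before normalisation, and 31.8% to 41% of probes were detected (detection p under 0.01). In fat the medians were 130 to 230 and the detected shares 40.3% to 49%. The number of arrays, not a depth, limits precision. Levels are given as log2 of the normalised intensity, on which 1 unit is a doubling. They are compared between groups for 1 probe at a time, never between probes. All 18 hepatocyte markers with a probe were detected in every liver array, and the 4 markers of kidney proximal tubule in none. Arrays went over 8 slides per tissue. In liver 3 slides held both blank and testosterone arrays, 2 held both blank and estradiol arrays, and none held all 3 capsules.

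A pair of liver arrays went against their labels. XY-Sry T replicate 5 had 4.53 for Eif2s3y, a Y-linked gene, inside the 4.32 to 4.96 of XX and XXSry livers and below the 6.76 to 8.14 of the other XY livers. XY- E replicate 5 had 4.56 for Cux2 (Cutl2 on the array), a repressor known from female livers, inside the 4.32 to 5.21 of testosterone livers and below the 7 to 9.79 of the other estradiol livers. Both were kept under their labels, and values that move without them are given both ways, save where stated. The label of 1 fat array, XX E replicate 1, names estradiol in its title and testosterone in another field, and it was kept as estradiol.

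Cyp4a12 was high in every testosterone liver. In the 20 livers without Sry that lacked testosterone it was between 4.58 and 6.32, except for XY- E replicate 5 at 11.19, the array whose profile went against its label. In XX blank livers its levels were 5.13, 4.62, 4.60, 5.66 and 5.00, with 1 of 5 arrays detected. In XY- blank livers they were 5.04, 4.72, 4.87, 4.77 and 5.15, with 0 of 5 detected. The XX and XY- blanks overlapped and sat at the array's floor. XXSry blank livers had 5.68, 7.0, 7.06, 8.15 and 6.26, all detected. XY-Sry blank livers had 4.61, 6.65, 6.82, 6.52 and 6.54, with 4 of 5 detected. Every XXSry blank liver was above every XX blank liver, while 1 XY-Sry blank liver fell among the XY- ones.

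With testosterone the XX livers had 11.90, 11.56, 11.01, 12.07 and 11.63 for Cyp4a12. The XY- livers had 10.78, 11.52, 10.99, 11.34 and 11.19. The XXSry livers had 12.38, 12.58, 12.44, 12.45 and 12.55, and were the tightest group (SD 0.08, n = 5). The XY-Sry livers had 11.78, 12.46, 11.38, 12.54 and 12.51. No testosterone liver overlapped any blank liver. The mean difference from blank was 6.63 in XX, 6.25 in XY-, 5.65 in XXSry and 5.91 in XY-Sry. In XY- mice, where no blank array was above background, this is at least 50.9-fold. Over the 4 genotypes the fitted difference was 6.11 ± 0.29 (SE), a description because it chose the gene. Within the 3 slides that held both capsules it was 5.69 to 6.21, and without XY-Sry T replicate 5 it was 6.09. Without background correction of the intensities the difference was 4.46.

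With estradiol, Cyp4a12 was undetected in all 5 XX livers, at 4.74, 5.05, 4.65, 4.75 and 4.63. The XY- livers had 4.79, 6.32, 4.84, 4.58 and 11.19, where the last is again that array. The XXSry livers had 6.29, 7.13, 5.91, 7.27 and 7.69, all detected. The XY-Sry livers had 4.72, 5.38, 5.56, 4.83 and 5.61, with 1 of 5 detected. XXSry estradiol livers were thus above all XX and all XY-Sry estradiol livers, at least 2.41-fold over XX and, by group means, 1.64 log2 units over XY-Sry. These single group pairs were noticed in the data and are given without a test.

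MGC25972 followed a like course at higher detection. In XX blank livers it had 6.74, 5.37, 5.03, 8.21 and 6.84, with 3 of 5 detected. In XY- blank livers it had 4.68, 6.57, 5.30, 6.58 and 6.20, again with 3 of 5 detected. XXSry blank livers had 8.04, 9.16, 8.53, 10.43 and 7.39, all detected. XY-Sry blank livers had 6.83, 8.98, 8.59, 8.80 and 9.75, all detected. XY-Sry and XY- blanks did not overlap, whereas 1 XX blank liver, at 8.21, lay among the XXSry ones.

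Under testosterone the MGC25972 levels were 13.64, 12.93, 13.18, 13.57 and 13.47 in XX livers and 13.12, 13.00, 12.74, 13.13 and 12.55 in XY- livers. They were 13.82, 13.62, 13.69, 13.21 and 13.40 in XXSry livers and 13.60, 13.45, 12.86, 13.58 and 13.33 in XY-Sry livers. The 20 testosterone arrays spanned 12.55 to 13.82 against 4.68 to 10.43 for the 20 blank arrays, with no overlap. The mean difference from blank was 6.92 in XX and 7.04 in XY- livers, and 4.84 in XXSry and 4.78 in XY-Sry livers. Averaged over genotypes it was 5.89 ± 0.36 (SE), a description for the same reason as above, and 5.83 to 6.85 within slides.

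The lowest MGC25972 levels of the 60 livers, 4.36 to 4.57, were those of 3 estradiol livers. They lay below 5.19, the lowest level of any probe detected on a liver array, as did an XY- blank liver at 4.68. Levels that low cannot be ranked against each other. With estradiol, XX livers had 4.94, 4.57, 6.08, 5.43 and 4.99, with 1 of 5 detected. XY- livers had 4.67, 7.94, 4.94, 4.71 and 12.57, the last again being the array that went against its label. XXSry livers had 7.63, 7.83, 7.54, 7.65 and 8.34, all detected, and XY-Sry livers had 4.36, 5.86, 6.26, 4.55 and 5.75, with 3 of 5 detected. XXSry estradiol livers did not overlap the XX or the XY-Sry ones, and XY-Sry estradiol livers did not overlap XY-Sry blanks (5.36 against 8.59 on average). As for Cyp4a12, these single group pairs are descriptions.

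Cyp4a14 was detected in all 60 livers and moved little. Its group means were 12.89 to 13.26 in blank, 12.20 to 12.82 in testosterone and 12.24 to 12.74 in estradiol livers. The XX blank livers had 13.26, 13.32, 13.10, 12.87 and 13.05, and the XX estradiol livers 11.86, 12.61, 12.45, 11.63 and 12.63, without overlap. In the other 3 genotypes the blank and estradiol levels overlapped. The lowest levels of the 60 were 10.40 in XY- E replicate 2, 10.79 in XXSry T replicate 2 and 11.15 in XY-Sry T replicate 3. The testosterone difference, again a description, was -0.57 ± 0.16 (SE).

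**Figure D1:**
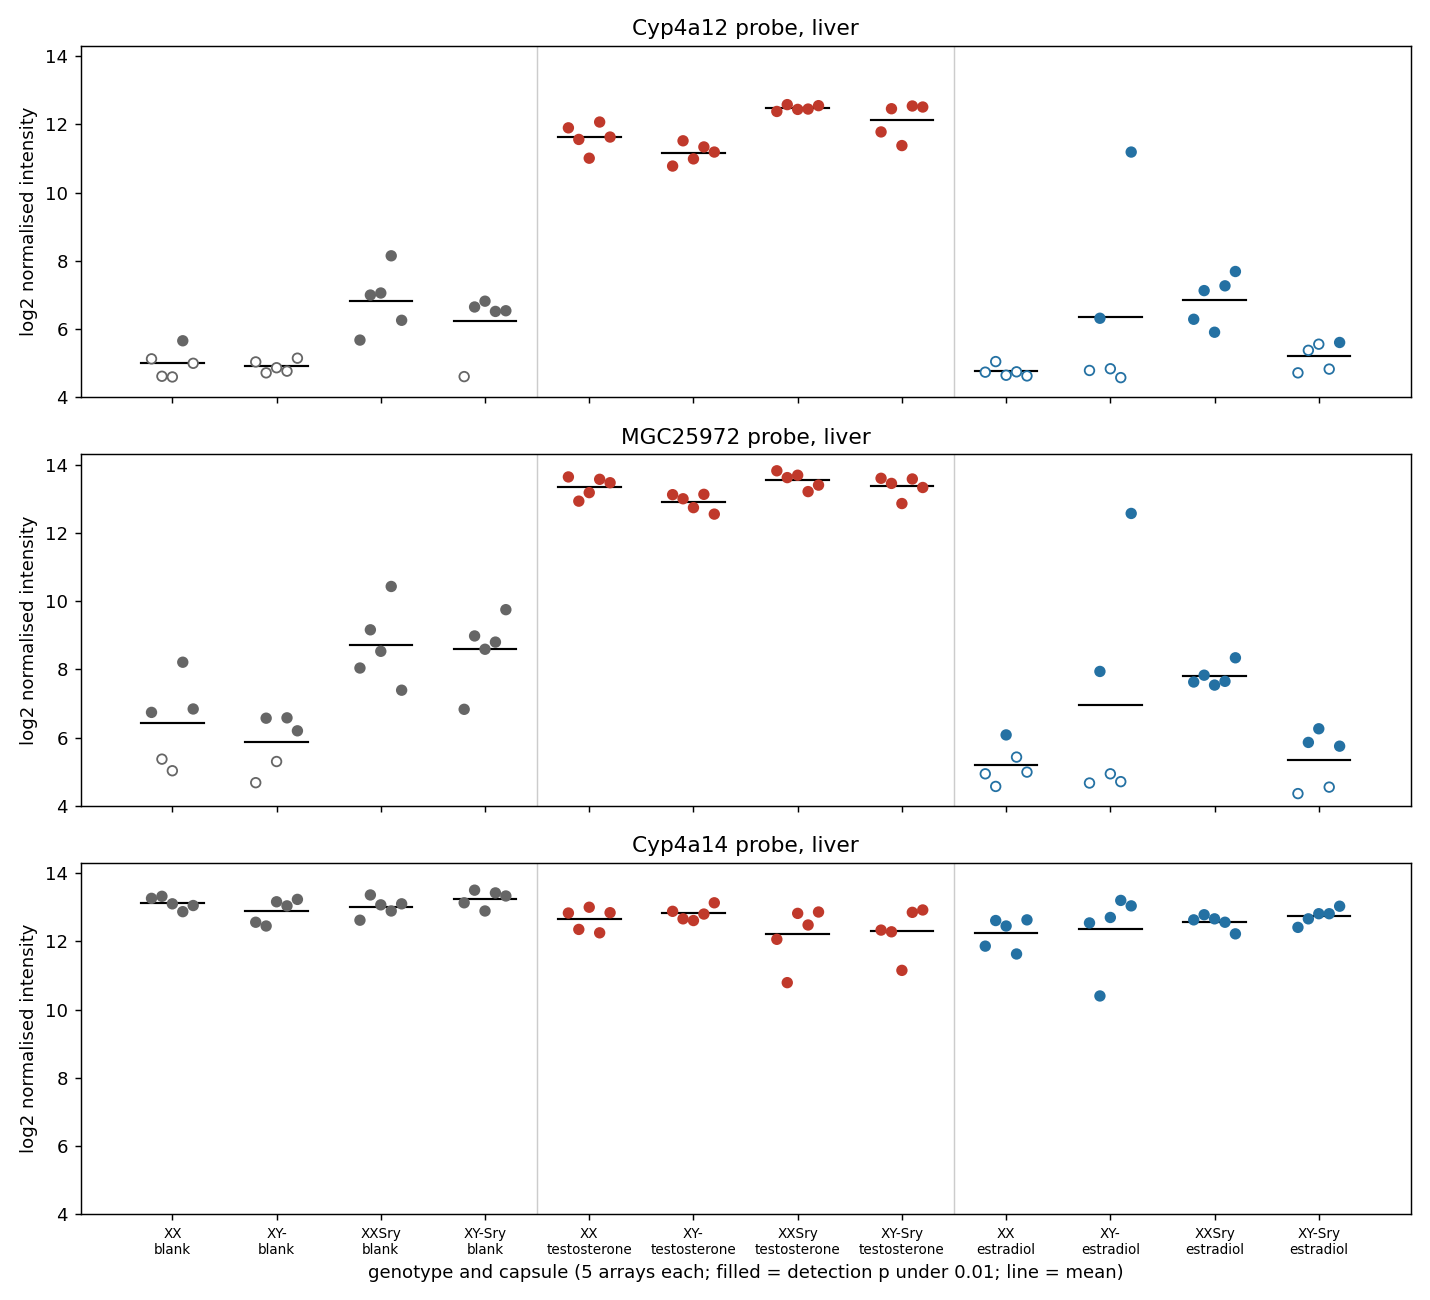
Log2 normalised intensity of the 3 member probes (y axis) in each of the 60 liver arrays, by capsule and genotype (x axis), with filled points for arrays in which the probe was detected at p under 0.01 and a line at the mean of 5 arrays. Cyp4a12 and MGC25972 were high in all 20 testosterone livers and in 1 estradiol array, XY- E replicate 5, while Cyp4a14 stayed between 10.40 and 13.50 in every array.

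Ordered by group mean, Cyp4a12 ran from XXSry T (12.48 ± 0.08, SD, n = 5) through XY-Sry T (12.13 ± 0.53), XX T (11.63 ± 0.40) and XY- T (11.16 ± 0.29), and then dropped by 4.30 to XXSry E (6.86 ± 0.73). Below it came XXSry B (6.83 ± 0.93), XY- E (6.34 ± 2.79), XY-Sry B (6.23 ± 0.91), XY-Sry E (5.22 ± 0.42), XX B (5.00 ± 0.43), XY- B (4.91 ± 0.18) and XX E (4.76 ± 0.17). Of the 11 steps between neighbours, those from XX T to XY- T, from XY- T to XXSry E and from XY-Sry B to XY-Sry E exceeded the larger SD of the pair, and the step from XY- T to XXSry E was the one without overlap. For MGC25972 the order was XXSry T (13.55 ± 0.25), XY-Sry T (13.37 ± 0.30), XX T (13.36 ± 0.30), XY- T (12.91 ± 0.25), XXSry B (8.71 ± 1.16), XY-Sry B (8.59 ± 1.08), XXSry E (7.80 ± 0.32), XY- E (6.97 ± 3.42), XX B (6.44 ± 1.28), XY- B (5.87 ± 0.84), XY-Sry E (5.36 ± 0.84) and XX E (5.20 ± 0.58). Again the fall of 4.2 below XY- T was the one step without overlap. For Cyp4a14 no step between neighbouring groups exceeded the larger SD. The place of XY- E rests on replicate 5. Over its other 4 arrays the mean was 5.13 ± 0.80 (SD, n = 4) for Cyp4a12, between XY-Sry E and XX B, and 5.57 ± 1.59 for MGC25972, between XY- B and XY-Sry E.

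The effect of estradiol in castrates was asked of the 20 estradiol and 20 blank livers, averaged over genotypes. Cyp4a14 fell by 0.59 ± 0.16 on the log2 scale (SE, 1.5-fold lower, adjusted p = 0.0140, limma with Benjamini-Hochberg adjustment over all tested probes). MGC25972 was 1.07 ± 0.36 lower (limma adjusted p = 0.0619), which did not pass the 0.05 threshold, and Cyp4a12 differed by 0.05 ± 0.29 (limma adjusted p = 0.946, 95% interval -0.52 to 0.62). So 1 of 3 member probes was called, where 6.82% of all tested liver probes were. The blank arrays are those of the testosterone comparison that chose the genes.

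Without XY- E replicate 5, MGC25972 fell by 1.42 (limma adjusted p = 9.96e-05), Cyp4a14 fell by 0.63 (limma adjusted p = 0.00749) and Cyp4a12 was at -0.25 (limma adjusted p = 0.435). The MGC25972 call was also made when XY-Sry B replicate 1, XXSry B replicate 5, XY- B replicate 1 or XX B replicate 3 was left out. Within the 2 slides that held both capsules MGC25972 was lower in 7 of 7 pairs of the same genotype, with slide means of -2.25 and -2.09. On the same slides Cyp4a14 was lower in 6 of 7 pairs, by 0.27 and 0.73 on average, and Cyp4a12 in 4 of 7. With slide as a block Cyp4a14 was at -0.49 (limma adjusted p = 0.0994), which ended its call, and MGC25972 was at -1.69 (limma adjusted p = 0.00685), which made one.

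A second comparison set mice born with testes (Sry) against mice born with ovaries, all of them castrated. Over the 3 capsules Cyp4a12 was higher with Sry by 0.99 ± 0.23 (SE, 1.98-fold, limma adjusted p = 0.00449) and MGC25972 by 1.10 ± 0.30 (2.15-fold, limma adjusted p = 0.0183). Cyp4a14 showed 0.00 ± 0.13 (limma adjusted p = 0.999, 95% interval -0.26 to 0.26). These 2 calls of 3 probes stand against 3.4% of all tested probes. Without XY- E replicate 5 the differences were 1.19 and 1.34 (limma adjusted p = 4.61e-09 and 3.79e-06), and without XY-Sry T replicate 5 they were 0.97 and 1.11. Without background correction both missed the threshold, at 0.49 for Cyp4a12 (limma adjusted p = 0.0529) and 0.59 for MGC25972 (limma adjusted p = 0.119).

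In blank livers, with no hormone given, MGC25972 was higher with Sry by 2.5 ± 0.51 (SE, 5.64-fold, limma adjusted p = 0.00188) and Cyp4a12 by 1.57 ± 0.40 (2.97-fold, limma adjusted p = 0.0215). The 10 blank livers with Sry had a median of 8.70 for MGC25972 and 6.59 for Cyp4a12, and the 10 without it 6.39 and 4.94. Cyp4a12 was detected in 9 of 10 of the former and 1 of 10 of the latter, so its fold rests partly on levels below detection. Cyp4a14 did not pass (0.13 ± 0.22, limma adjusted p = 0.962). The 2 of 3 members called compare with 1.75% of all tested probes. Leaving out XXSry B replicate 4, the highest blank liver, put Cyp4a12 at an adjusted p of 0.0654 by limma. Its call was also lost without background correction, where the difference was 0.59 (limma adjusted p = 0.379), with an offset of 50 before log2, at 1.0 (limma adjusted p = 0.107), and with all probes tested (limma adjusted p = 0.0583). The MGC25972 call was kept in each of these fits, though without background correction its difference was smaller, at 1.47 (limma adjusted p = 0.0119). Without XY- E replicate 5, an array outside this comparison that enters the shared spread, the differences were again 1.57 and 2.5. There limma gave an adjusted p of 9.02e-06 for Cyp4a12 and 1.7e-06 for MGC25972.

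The direction was the same within slides. On the 5 slides that held blank livers of both kinds, both probes were higher with Sry on 5 of 5 slides and in 8 of 8 pairs, by 0.85 to 2.27 for Cyp4a12 and by 1.57 to 3.59 for MGC25972. Under testosterone Cyp4a12 was higher with Sry by 0.91 ± 0.40 (limma adjusted p = 1, unadjusted p = 0.0281), on 5 of 5 slides and in 10 of 10 pairs. MGC25972 differed there by 0.32 ± 0.51 and Cyp4a14 by -0.48 ± 0.22. None of the 3 was called by limma, where 0.212% of all tested probes were. An unadjusted p under 0.05 was found for 2 of 3 members and for 502 of the 11317 tested probes. Without XY-Sry T replicate 5 the values were 0.86 for Cyp4a12, 0.33 for MGC25972 and -0.56 for Cyp4a14. Without XY- E replicate 5 Cyp4a12 was again at 0.91 (limma adjusted p = 0.116).

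Under estradiol the Sry difference was 0.49 ± 0.40 for Cyp4a12 (limma adjusted p = 0.723), 0.49 ± 0.51 for MGC25972 (limma adjusted p = 0.813) and 0.35 ± 0.22 for Cyp4a14 (limma adjusted p = 0.592). None was called by limma, where 2.44% of all tested probes were. An unadjusted p under 0.05 was found for 0 of 3 members and for 1353 of the 11317 tested probes. The values of Cyp4a12 and MGC25972 rest on 1 array. Without XY- E replicate 5 Cyp4a12 was higher with Sry by 1.09 (limma adjusted p = 0.00311) and MGC25972 by 1.19 (limma adjusted p = 0.0483). With XY-Sry T replicate 5 also left out, both values were the same, but the call of MGC25972 was lost (limma adjusted p = 0.051) and that of Cyp4a12 kept (limma adjusted p = 0.00335). These averages came from the XX pair. Without XY- E replicate 5 the XXSry and XX means were 6.86 and 4.76 for Cyp4a12, and 7.80 and 5.20 for MGC25972. The XY-Sry and XY- means were 5.22 and 5.13 for Cyp4a12, and 5.36 and 5.57 for MGC25972.

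**Figure D2:**
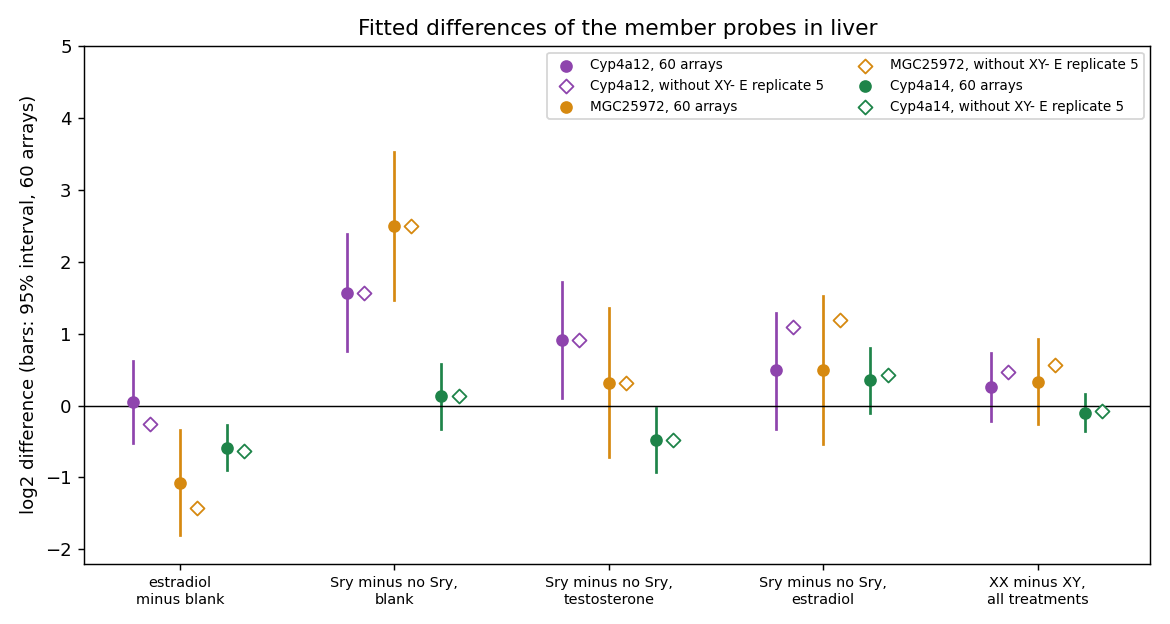
Fitted log2 differences of the member probes in liver (y axis) for 5 comparisons (x axis), with filled points and 95% intervals from all 60 arrays and open diamonds from the fit without XY- E replicate 5. The Sry difference in blank livers was 1.57 for Cyp4a12 and 2.5 for MGC25972 in both fits, whereas in estradiol livers it moved from 0.49 to 1.09 and from 0.49 to 1.19.

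**Figure D3:**
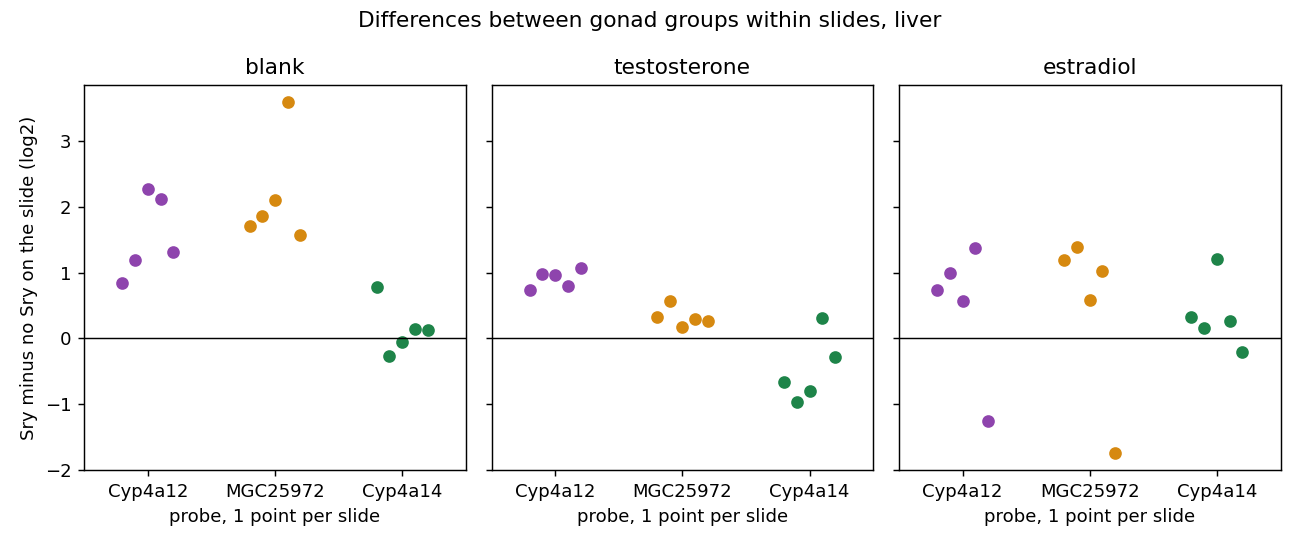
Sry minus no Sry within each slide (y axis, log2) for the 3 member probes (x axis), 1 point per slide and 1 panel per capsule. In blank livers all 5 points of Cyp4a12 and of MGC25972 lie above 0, while the low points of the estradiol panel, -1.26 and -1.74, are the slide that holds XY- E replicate 5.

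Whether the Sry difference itself changed with hormone was tested by interaction terms. The testosterone by gonad term uses the testosterone and blank arrays that chose the members, so no call in it counts as support. The estradiol by gonad term shares those blank arrays. The testosterone difference of MGC25972 was smaller with Sry than without by 2.17 ± 0.73 (limma adjusted p = 0.565), and that of Cyp4a12 by 0.66 ± 0.57 (limma adjusted p = 0.952). The estradiol difference of MGC25972 was lower with Sry by 2.0 ± 0.73 (limma adjusted p = 0.537). No member was called by limma in either interaction, where 0.124% and 0.0795% of all tested probes were. In each, 1 of 3 members had an unadjusted p under 0.05. So did 659 of the 11317 tested probes for testosterone and 622 for estradiol. Without XY- E replicate 5 the MGC25972 value for testosterone by gonad stayed at -2.17 and was called (limma adjusted p = 0.0382). With XY-Sry T replicate 5 also left out it was again -2.17 and not called (limma adjusted p = 0.0629). Without XY- E replicate 5 the estradiol by gonad value of MGC25972 was -1.3 (limma adjusted p = 0.577), and that of Cyp4a12 moved from -1.09 to -0.48 (limma adjusted p = 0.917).

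The sex chromosomes made no called difference. Over both gonads and all capsules, XX minus XY livers was 0.26 ± 0.23 for Cyp4a12 (95% interval -0.21 to 0.73), 0.33 ± 0.30 for MGC25972 (-0.26 to 0.93) and -0.10 ± 0.13 for Cyp4a14 (-0.36 to 0.16), each with an adjusted p of 0.999 by limma. None of the 3 had an unadjusted p under 0.05, beside 472 of the 11317 tested probes. Limma called 0.186% of all tested probes. Without XY-Sry T replicate 5 the values were 0.28, 0.33 and -0.07. Without XY- E replicate 5 they were 0.46 for Cyp4a12 (limma adjusted p = 0.398), 0.57 for MGC25972 (limma adjusted p = 0.846) and -0.07 for Cyp4a14 (limma adjusted p = 0.998). The 3 interactions with the sex chromosomes (by testosterone, by estradiol and by gonad) called 0 members and 0 of the 11317 probes by limma. Cyp4a12 in the interaction with gonad was the 1 member value in them with an unadjusted p under 0.05.

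Other cell types moved with some of these groups. The mean level of the 4 tested Kupffer cell markers, of 5 listed, ranged from 6.95 to 8.36 (median 7.57) in livers with Sry and from 7.18 to 9.27 (median 8.12) in those without. It had a median of 7.90 in blank, 7.55 in testosterone and 8.25 in estradiol livers. Their part in the results was not tested. The hepatocyte marker level was 12.53 to 12.98 in all 60 livers, with medians of 12.77 with Sry and 12.75 without. In whole tissue, fewer cells of a type and less RNA per cell cannot be told apart.

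Beyond group means, Cyp4a12 and MGC25972 varied together from array to array. After subtracting each group's mean, their levels correlated over the 60 livers at Pearson r = 0.88 and Spearman rho = 0.61 (permutation p within groups, 100000 draws, adjusted over 4 pairs: 2e-05, from the smallest p that these draws can give, and 8e-05). Without the 2 farthest arrays, both XY- E, r was 0.73, and without both doubted arrays it was 0.71. Over all 60 livers, with slide means also subtracted, r was 0.86. Cyp4a14 tracked neither, with r = 0.09 against Cyp4a12 and -0.02 against MGC25972 (adjusted permutation p = 0.96 for both, rho 0.03 and -0.06). A pair added after seeing the data was Cyp4a14 with Cyp4a31 (BC013476 on the array), of the same family. It had r = 0.71 and rho = 0.67 (adjusted permutation p = 2e-05 and 4e-05), and r = 0.61 without the 2 farthest arrays.

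The probes whose 12 group means lay closest to each member were found by Pearson correlation, given as a description. For Cyp4a12 these were Selenbp2 (r = 0.988), a selenium-binding protein, Cyp2u1 (0.988), another fatty acid hydroxylase, and OTTMUSG00000000231 (0.986). For MGC25972 they were Arsa (0.985), the lysosomal arylsulfatase A, OTTMUSG00000000231 (0.984) and Cyp4a12 itself (0.983). For Cyp4a14 they were Cyp4a31 (0.925), Ppp5c (0.914), a protein phosphatase, and Bbox1 (0.909), which makes carnitine. Group means share the large testosterone step. Over the 8 blank and estradiol means the same r was 0.796 for Selenbp2 and 0.873 for MGC25972 against Cyp4a12, and 0.965 for Cyp4a31 against Cyp4a14.

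Of 21 other Cyp4 genes listed, 8 were tested in liver. With estradiol 0 were higher and 2 lower: Cyp4a31 fell by 0.96 ± 0.19 (SE, limma adjusted p = 0.000463) and Cyp4f15, of the leukotriene-hydroxylating Cyp4f group, fell by 0.38 ± 0.09 (limma adjusted p = 0.00473). The median over the 8 was -0.02, as over all tested probes. Cyp4a31 lies beside Cyp4a10 in the gene order, and its group means ran from 10.33 to 10.68 in blank, 9.42 to 10.24 in testosterone and 9.08 to 9.89 in estradiol livers. With Sry, 0 were higher and 1 was lower: Cyp4f18, known from neutrophils and other white blood cells, fell by 0.54 ± 0.11 (limma adjusted p = 0.000667). The part of such cells in this value was not tested. The Cyp4f18 probe was near the array's floor, at a mean level of 5.55. Without background correction its difference was -0.19 (limma adjusted p = 0.0024). In blank livers alone 0 of 8 were called by Sry. Testosterone, the comparison that chose the members, called 2 higher and 3 lower of the 8, beside 19.1% of all probes.

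The PPAR-alpha targets, the gene group to which Cyp4a14 belongs, held 27 tested genes of 34 listed outside the peroxisome. Estradiol lowered 4 of the 27 and raised 0, beside 6.82% of all probes called, with a median of -0.16 against -0.02 over all probes. Acot1, a cytosolic acyl-CoA thioesterase, fell by 0.67 ± 0.15 (limma adjusted p = 0.00317), although another Acot1 probe did not give the same call, and Cpt1a, which brings fatty acids into mitochondria, fell by 0.40 ± 0.11 (limma adjusted p = 0.0138). The Cpt1a probe was near the array's floor, at a mean level of 5.31. Without background correction its difference was -0.12 (limma adjusted p = 0.0228). With Sry, where 3.4% of all probes were called, 1 of 27 was lower, Pdk4, a brake on pyruvate dehydrogenase, by -0.55 ± 0.14 (limma adjusted p = 0.0125), and Pdk4 was also the 1 called in blank livers, beside 1.75% of all probes. Pdk4 was also dim, at a mean level of 5.92. Over all livers its Sry difference was -0.23 without background correction (limma adjusted p = 0.0199). Testosterone called 2 higher and 3 lower of the 27, beside 19.1%.

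Of 29 genes of peroxisomal oxidation, where the dicarboxylic acids made after omega hydroxylation are shortened, 26 were tested. Estradiol lowered 4 and raised 0, beside 6.82% of all probes called, with a median of -0.17. The thioesterases Acot3 and Acot4, which hydrolyse peroxisomal acyl-CoAs and dicarboxylyl-CoAs, fell by 1.40 ± 0.28 (limma adjusted p = 0.000734) and 0.56 ± 0.13 (limma adjusted p = 0.00271). With slide as a block Acot3 was at -1.03 and lost its call (limma adjusted p = 0.0625). By Sry 0 of 26 were called, in all livers and in blanks. Testosterone called 2 higher and 4 lower of the 26, beside 19.1% of all probes.

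Among regulators and redox partners, 23 of 27 listed genes were tested. Estradiol raised 1 and lowered 2, beside 6.82% of all probes called, with a median of -0.10. Ppara, the receptor that drives Cyp4a14, fell by 0.63 ± 0.15 (limma adjusted p = 0.00394). Its partner Rxra was at -0.24 ± 0.08 (limma adjusted p = 0.0431) and the growth hormone signal transducer Stat5a at 0.39 ± 0.12 (limma adjusted p = 0.0430), for which another probe did not give the same call. Leaving out 1 array ended the Rxra call in 25 of 60 fits and the Stat5a call in 20 of 60, whereas Ppara, Cyp4a31 and Acot3 kept theirs in all 60. By Sry 0 of the 23 were called, in all livers and in blanks, with medians of 0.09 and 0.07 against 0.01 over all probes. Testosterone called 1 higher and 11 lower of the 23, beside 19.1% of all probes.

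In inguinal fat the family was seldom detected. Cyp4a12 was detected in 0 of 55 arrays, MGC25972 in 2 and Cyp4a14 in 11, and 7 of 8 white adipocyte markers with a probe were detected in every array. The 44 arrays in which Cyp4a14 was not detected spanned 4.54 to 5.75. The 11 others spanned 6.14 to 12.62 with a median of 7.07, and lay in 9 of the 12 groups. The highest was XY-Sry T replicate 1 at 12.62, followed by XX T replicate 4 at 9.40 and XXSry B replicate 1 at 9.01. All 4 estradiol arrays among the 11 shared a slide with XY-Sry T replicate 1. They were replicate 1 of XY-Sry E, XXSry E, XY- E and XX E. XXSry B replicate 2 and XY- B replicate 1 were the 2 fat arrays of another slide, which also held liver arrays. Fits with slide as a block are given below.

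The mean level of the 15 tested hepatocyte markers moved with Cyp4a14 in fat. It was 7.69 to 13.49 (median 8.93) in the 11 arrays with Cyp4a14 and 5.23 to 7.71 (median 5.98) in the 44 without, and 10 of those 11 were among the 11 highest marker levels. XY-Sry T replicate 1 had the highest marker level of all, 13.49, and XX T replicate 4 had 10.80. These were also the arrays with MGC25972 detected, at 7.57 and 6.33. The differences of Cyp4a14 between groups of fat arrays are given below with and without this marker level in the fit.

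**Figure D4:**
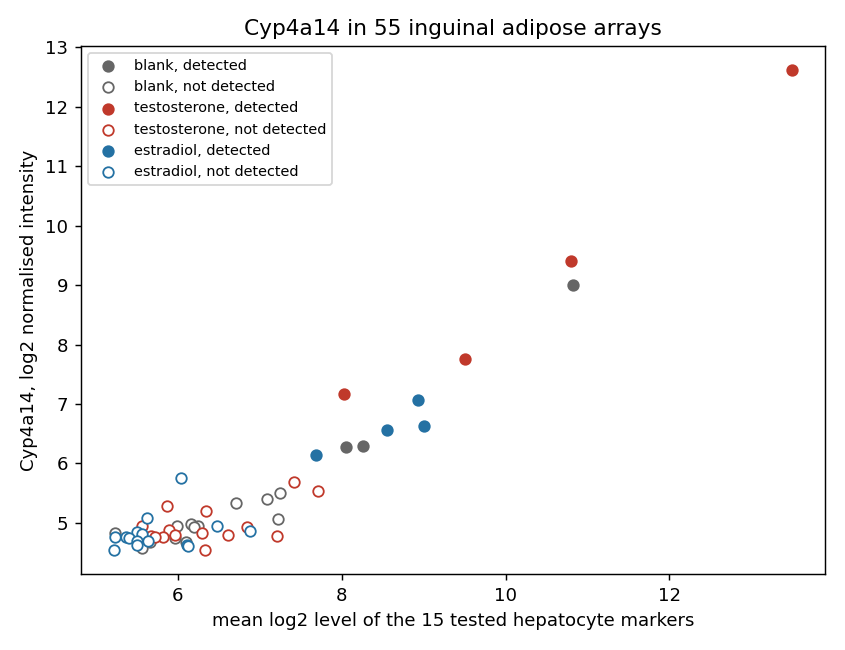
Log2 normalised intensity of Cyp4a14 (y axis) against the mean log2 level of 15 hepatocyte markers (x axis) in 55 inguinal adipose arrays, coloured by capsule and filled where Cyp4a14 was detected. The 11 detected arrays have marker levels from 7.69 to 13.49, and the other 44 lie at Cyp4a14 levels of 4.54 to 5.75.

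No difference of Cyp4a14 was called in fat. Testosterone minus blank was 0.55 ± 0.49 (limma adjusted p = 0.567, 4.75% of all probes called) and estradiol minus blank -0.11 ± 0.49 (limma adjusted p = 0.918, 20.5% called). Sry minus no Sry was 0.43 ± 0.40 (limma adjusted p = 0.646, 7.34% called) and XX minus XY 0.32 ± 0.40 (limma adjusted p = 0.831, 0.137% called). None of these 4 comparisons gave an unadjusted p under 0.05 for it. The 95% interval of the estradiol difference ran from -1.10 to 0.88 and so held the liver value of -0.59. With the hepatocyte marker level as a covariate, the Cyp4a14 differences were 0.09 for testosterone (limma adjusted p = 0.802), 0.16 for estradiol (limma adjusted p = 0.517), 0.11 for Sry (limma adjusted p = 0.719) and -0.22 for XX minus XY (limma adjusted p = 0.611). With slide as a block they were 0.02 for testosterone (limma adjusted p = 0.995) and -0.56 for estradiol (limma adjusted p = 0.596). Leaving out 1 array gave 0.17 to 0.74 for testosterone, 0.18 to 0.63 for Sry and 0.12 to 0.57 for XX minus XY, and none of these fits called it.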

How the data were processed

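Liver and inguinal fat RNA was measured on Illumina bead arrays. The authors deposited, per the file headers, 1 probe profile table per tissue with a mean bead intensity, not yet normalised, and a detection p-value for each probe and array. The tool lumi is named in the submitters' processing notes, with no version or role. The deposited bead standard errors, 115 columns, were not used.

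Each tissue was normalised by itself in limma 3.58.1 under R 4.3.3: normexp background correction with controls inferred from the detection p-values, an offset of 16, quantile normalisation and log2. A probe was kept when the number of arrays that detected it (p under 0.01) reached the size of the smallest group. One linear model over the 12 group means gave every comparison, called at a Benjamini-Hochberg adjusted p under 0.05 over all kept probes. The code was tested on simulated data. A gene of several probes took its brightest. Named genes were the closest 3 by group means and the 2 largest called changes in each direction per list.

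The members, lists and arrays doubted were chosen with earlier results of these data known. Sequences of the probes, promoters and proteins of the members were not used here.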

Additional observations from a re-analysis of the deposited data

Results flagged for a closer look

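Among 45 sets of group and member probe with any detected array, 11 held a highest or lowest array that stood apart from the rest of its group by Dixon's test. Chance marks about 1 in 20 groups that were not picked by their values. That rate does not apply to the fat sets: 9 of the 11 entered through a single detected array, and all 8 fat sets marked were among those 9. In liver 3 of 34 sets were marked, and none of the 3 rested on a single detected array.

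In liver, Cyp4a12 in XY-Sry B replicate 1 was at 4.61 against 6.52 to 6.82 in the other arrays of the group. Cyp4a12 in XY- E replicate 5 was at 11.19 against 4.58 to 6.32. Cyp4a14 in XY- E replicate 2 was at 10.40 against 12.54 to 13.20.

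The other 8 were single fat arrays above the rest of their group. For Cyp4a14 these were XY-Sry T replicate 1 at 12.62, XX T replicate 4 at 9.40, XXSry E replicate 1 at 7.07, XX E replicate 1 at 6.63, XY- B replicate 1 at 6.28 and XY- E replicate 1 at 6.14. For MGC25972 they were XY-Sry T replicate 1 at 7.57 and XX T replicate 4 at 6.33. In all 8 the hepatocyte marker level was at or above 7.69. How the differences of Cyp4a14 in fat moved with that level as a covariate is given with them above.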

How the results depend on the processing

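Single arrays, the background correction and the scaling set the limits. Cyp4a12 lies at the background in most livers without Sry or testosterone and both of its Sry calls were lost without background correction. Arrays could not be paired by replicate because the labels give no replicate numbers, and those used here only name arrays. The slide, which the labels do give, was fitted as a block. Beside the changes of call given above for Cyp4a14, MGC25972 and Acot3, it ended the estradiol calls of Stat5a in liver, at 0.34 (limma adjusted p = 0.175), and of Cyp4f16 in fat, at 0.25 (limma adjusted p = 0.106).

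For estradiol minus blank in liver, 2 members were called in place of 1 with median centring, with array weights and with both doubted arrays left out. Median centring moved the median of all probes there to -0.18, from -0.02, and the share of called probes that were higher to 8.55%, from 52.1%. It called 1392 probes in place of 772, and MGC25972 was at -1.20 (limma adjusted p = 0.0203). By Sry, 0 members in place of 2 were called without background correction and 1 with all probes tested. Median centring called 232 probes by Sry in place of 385. In blank livers 1 member in place of 2 was called by Sry without background correction, with an offset of 50 and with all probes tested. In estradiol livers 1 in place of 0 was called with both doubted arrays left out. Leaving out 1 array at a time gave 1 to 2 called members for estradiol, 1 to 2 for Sry in blank livers, 0 to 2 for Sry in estradiol livers and 0 to 1 for testosterone by gonad. The last of these terms uses the arrays that chose the members.

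Turns of sign arose in values that were not called. Cyp4a12 with estradiol was at -0.02 with median centring, -0.53 with slide as a block and -0.25 without the doubted arrays, and -0.25 to 0.16 leaving out 1 array. Cyp4a14 by Sry was at 0.06 with median centring and 0.00 without the doubted arrays, and -0.08 to 0.06 leaving out 1 array. Cyp4a14 in the estradiol by gonad term, leaving out 1 array, ran from -0.02 to 0.33. Without background correction the Sry difference under estradiol was 0.00 for Cyp4a12 and -0.02 for MGC25972, and Cyp4a12 in testosterone by gonad was 0.29. In fat, with the hepatocyte marker level as a covariate, Cyp4a14 was at 0.16 for estradiol and -0.22 for sex chromosome, and leaving out 1 array it ran from -0.25 to 0.08 for estradiol. The correlation of Cyp4a12 and Cyp4a14 was -0.16 without the doubted arrays, and that of Cyp4a14 and MGC25972 was 0.07 without the 2 farthest arrays and 0.14 with median centring.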

Other observations

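Other Cyp4 genes passed the filter on dim probes in fat. Of 8 tested there, estradiol raised 2 and lowered 2, beside 20.5% of all probes called. Cyp4v3, a fatty acid hydroxylase, rose by 0.77 ± 0.12 (SE, limma adjusted p = 2.97e-06), and Cyp4f16 was at 0.28 ± 0.10 (limma adjusted p = 0.0389), a call lost in 13 of 55 fits that left out 1 array. Another Cyp4f16 probe did not give the same call. Cyp4b1 and Cyp4f13 fell by 0.51 ± 0.12 (limma adjusted p = 0.000952) and 0.36 ± 0.09 (limma adjusted p = 0.00152). With Sry, where 7.34% of all probes were called, 1 was higher, Cyp4v3, at 0.31 ± 0.10 (limma adjusted p = 0.0386, lost in 14 of 55 such fits). Testosterone called 0 of 8 by limma, beside 4.75%.

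In fat, where estradiol called 20.5% of all probes, it lowered 8 of 28 tested PPAR-alpha targets and raised 0, among them the lipid droplet protein Cidea, which fell by 2.87 ± 0.33 (limma adjusted p = 3.32e-09), and the mitochondrial carrier Ucp3, which fell by 1.2 ± 0.26 (limma adjusted p = 0.000454). Of 24 peroxisomal genes it lowered 6 and raised 0, with Acot4 at -1.48 ± 0.21 (limma adjusted p = 6.31e-07). Of 18 regulators it raised 2 and lowered 7. Socs2, a feedback inhibitor of growth hormone signalling, rose by 1.46 ± 0.14 (limma adjusted p = 7.92e-11), and the coactivator Ppargc1a fell by 1.2 ± 0.23 (limma adjusted p = 0.000111). With Sry, Acot1 fell by 2.01 ± 0.20 (limma adjusted p = 2.78e-11), the 1 PPAR-alpha target of 28 called, beside 7.34% of all probes. The brown adipocyte marker level had a median of 9.07 in blank, 7.92 in testosterone and 6.92 in estradiol fat. Its 3 tested markers were Ucp1, Cidea and Ppargc1a, so it counts the falls of Cidea and Ppargc1a again. The skeletal muscle marker level had medians of 12.29, 12.34 and 9.55 in the same order. Between fat with and without Sry, the mammary epithelium marker level had medians of 6.69 and 10.51, and the white adipocyte marker level 11.87 and 11.5. The part of these cell types in the values above was not tested.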
